A study of Mus musculus with 2 samples.

Results

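Isolated Klf4 peaks are enriched stretches of the genome that stand alone, with more than 300 kb of sequence free of peaks on either side. They were chosen by position from the single peak list of this chromatin immunoprecipitation (ChIP-seq) study: a peak on chromosomes 1 to 19 or X was taken when the gap to the previous peak and the gap to the next one both exceeded 300 kb, and the 40 first and last peaks of the 20 chromosomes were left out. The rule found 609 isolated peaks, or 8.34% of the 7298 peaks placed on these chromosomes and part of the 7313 peaks of the whole list. The other 6689 placed peaks served as the comparison.

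The material was the stromal vascular fraction of mesenteric arcades, the fan of small vessels that feeds the gut, from C57BL/6 mice on chow diet. The first group of mice, labelled eYFP+/+ Klf4WT/WT, had intact Klf4. Both groups were described as carrying the eYFP label in smooth muscle cells (SMC). The other group, labelled eYFP+/+ Klf4delta/delta, was taken here as having Klf4 deleted in SMC, although that genotype label names no cells. There was 1 library per group. The sources used here do not state what drove the deletion, the age or sex of the mice, or whether animals were pooled. The peak list names neither genotype, so the groups could not be compared, no value below has a replicate error, and whether a peak depends on Klf4 was not tested. The labels describe a mixture of cell types, so peaks belong to no single type, and its identity could not be checked against marker genes in a list of positions.

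Klf4 is a zinc-finger transcription factor that binds GC-rich and CACCC-type DNA elements. It is known for controlling the switch of SMC away from their contractile state, for the differentiation of epithelia, for roles in macrophages and endothelium, and as a factor used to reprogram cells to pluripotency. Factors of this family often bind close to gene starts, which crowd together in gene-dense parts of a chromosome, and also at enhancers far from any gene start. Coordinates are in mm9 and 1-based. A genome or gene annotation of that build was not used here, so genes at these peaks are not named and no bases are printed.

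Isolated peaks lay in stretches poor in peaks, as the rule requires, but not all of them in deserts. The smaller of the 2 gaps around an isolated peak had a median of 515.9 kb and ran from 300.5 to 4750.5 kb, against a median of 39.2 kb over all placed peaks that have both gaps. The larger gap had a median of 1290.2 kb and reached 20817.8 kb. Within 1 Mb on either side of its midpoint, an isolated peak had a median of 3 further peaks, against 11 for the other peaks. The label of peak-poor sequence therefore fits most members, yet the range went from 0 to 20 further peaks, and 105 isolated peaks (17.2%) had none. These figures restate the selection and carry no test.

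Isolated peaks scored about as high as the rest. The score is the peak caller's own value for each peak. Part of the scores matched -10 times log10 of a Poisson tail probability, as given below. The score is therefore taken as a value of statistical significance, not of fold enrichment. Words such as strong and weak refer to this score alone. Isolated peaks had a median score of 109.49 (95% interval 101.97 to 118.9) and quartiles of 81.86 and 158.5. The other peaks had a median of 112.08 (110.05 to 113.45) and quartiles of 82.41 and 161.29. The median of isolated peaks was thus 97.7% of that of the other peaks, and its interval included the other median. All intervals cover counting error over peaks only, and no p-value was attached, because peaks of 1 list are not replicates.

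Both ends of the score range were held by isolated peaks about as often as by others. The upper 25% of all scores, from 161.14 up, held 150 isolated peaks, or 24.6% (exact Clopper-Pearson interval 21.3 to 28.3), against 25% of the other peaks. Scores under 70, close to the lowest score of the list (60.01), were held by 78 isolated peaks, or 12.8% (10.3 to 15.7), against 12.3% of the others. When all placed peaks were cut into 10 classes of rising score, the isolated share lay between 7.12% and 9.33% in each class and showed no steady trend. Scores above 500 were held by 2 isolated peaks (0.328%, interval 0.0398 to 1.18) and 33 others (0.493%).

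Isolated peaks were also about as wide as the rest. They had a median width of 892 bp (95% interval 858 to 933), a range of 285 to 4258 bp, and 15 of them (2.46%) reached 2000 bp. The other peaks had a median of 914 bp (903 to 926), and 2.75% of them reached 2000 bp. Within the 10 classes of score, the isolated median was the narrower in 6 and the wider in 4. Score per kb of width also lay close, with a median of 127.45 for isolated peaks and 129.13 for the others. Wider peaks scored higher among isolated peaks to the same degree as among others (Spearman's rho = 0.56 and 0.55, across peaks).

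**Figure D1:**
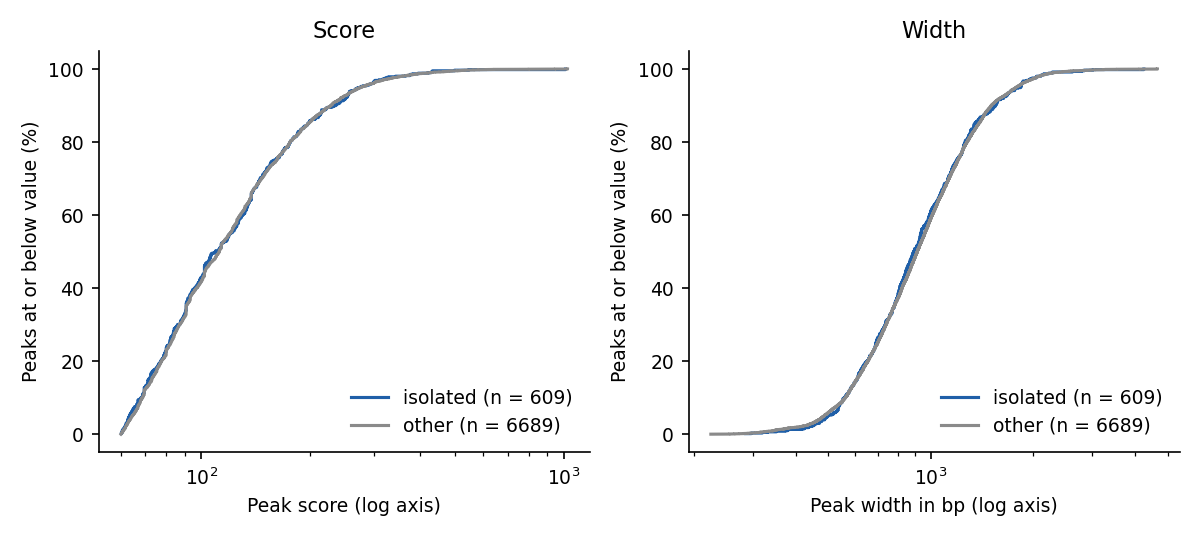
Cumulative share of peaks (vertical axes, percent) by score and by width in bp (horizontal log axes), for the 609 isolated peaks and the 6689 other placed peaks. The lines run almost on top of each other, with medians of 109.49 and 112.08 for score and of 892 and 914 bp for width.

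The comparison depends somewhat on which peaks stand on the other side. Among the other peaks, 1209 had a neighbour under 1 kb away, and these scored lower (median 99.39) and were narrower (median 776 bp). An isolated peak cannot have such a neighbour. The 5480 other peaks without one had a median width of 949 bp (936 to 961). Set against these, isolated peaks were narrower, with a median of 94% of that width, and the 2 intervals did not overlap. The 572 isolated peaks on autosomes alone had a median of 911 bp (870 to 938), an interval that only just reached that of the 5480. The 5480 still included peaks on chromosome X. A comparison with their autosomal part was not made, so whether the narrower width holds on autosomes was not tested. On chromosome X both kinds were narrow, with medians of 697 bp for isolated and 715 bp for other peaks. The median score of those 5480 peaks, 113.66, still lay within the interval of the isolated peaks. The opposite extreme, 2176 peaks in 1 Mb bins holding at least 10 peaks, had a median score of 109.98 (105.68 to 113.45) and a median width of 908.5 bp, so peaks in the most crowded bins and isolated peaks had similar medians.

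Score did vary with the degree of isolation. Peaks were sorted by the distance to their nearest neighbour. The median score was 99.31 for peaks under 1 kb from a neighbour, 103.27 at 1 to 10 kb, 113.45 at 10 to 30 kb, 117.97 at 30 to 100 kb and 114.41 at 100 to 300 kb. The 504 isolated peaks at 300 to 1000 kb were on the level of that middle range, with a median of 116.31 (105.56 to 125.01). The 105 isolated peaks farther than 1 Mb from any other scored lower, with a median of 90.8 (82.18 to 102.37). The 2 intervals did not overlap.

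**Figure D2:**
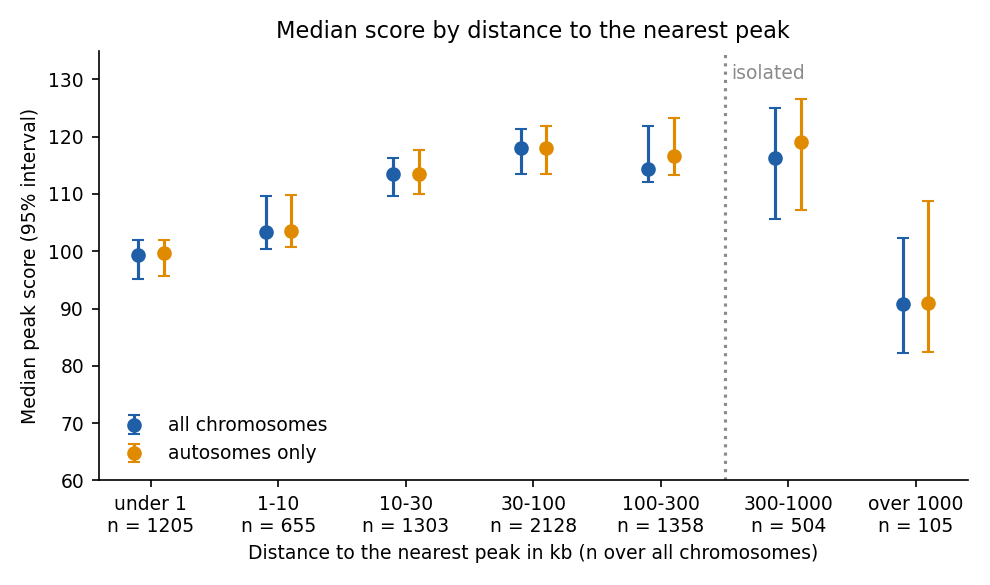
Median peak score (vertical axis, with 95% order-statistic intervals) by distance to the nearest peak in kb, over all chromosomes and over autosomes only; the 2 classes right of the dotted line are the isolated peaks. Medians rise from 99.31 under 1 kb to 117.97 at 30 to 100 kb, stay near that level up to 1000 kb, and drop to 90.8 beyond, or to 91 on autosomes.

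Within the isolated peaks the decline ran over the whole range of distances. The median score was 124.72 (113.45 to 133.35) for the 288 peaks at 300 to 500 kb, 102.66 (97.53 to 117.41) for the 216 at 500 to 1000 kb, 95.69 (87.51 to 113.45) for the 86 at 1 to 2 Mb and 78.69 (67.88 to 91.44) for the 19 beyond 2 Mb. Neighbouring classes in this order had overlapping intervals, while the first and the last did not overlap. The boundaries at 500 kb and 2 Mb were chosen after the data were seen. Across the 609 isolated peaks, which all come from the same list, the rank correlation of score with distance was weak (rho = -0.16), and it had the same value over the 572 on autosomes. Among the other peaks with both gaps it was 0.1.

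The most remote peaks were also narrower and more often near the lowest score. Beyond 1 Mb the median width was 811 bp (745 to 926), against 909 bp (867 to 941) at 300 to 1000 kb. Scores under 70 made up 20% (12.8 to 28.9) of the peaks beyond 1 Mb and 11.3% (8.68 to 14.4) of those at 300 to 1000 kb. These intervals overlapped. Some of the remote peaks were strong all the same, with 22 of the 105 (21%) in the upper 25% of scores and a highest score of 546.26.

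Chromosome X was more frequent among remote peaks, with 10.5% of the peaks beyond 1 Mb against 5.16% at 300 to 1000 kb. The median score on X was 88.8 for its 11 peaks beyond 1 Mb and 84.68 for its 26 at 300 to 1000 kb. Without chromosome X the medians were 91 (82.32 to 108.83) beyond 1 Mb and 119.04 (107.15 to 126.62) at 300 to 1000 kb, so the difference was as large, although these intervals overlapped. By chromosome, the remote peaks had the lower median on 13 of 20 chromosomes, and on 9 of the 13 with at least 3 peaks in both classes. The order differed between 2 chromosomes chosen after their values were seen. On chromosome 5 the medians were 79.335 for 8 remote peaks and 145.01 for 19 nearer ones, whereas on chromosome 15 they were 189.75 for 4 and 124.12 for 22. How well reads can be placed in these stretches, and their background coverage, were not measured, and their part in the difference was not tested.

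**Figure D3:**
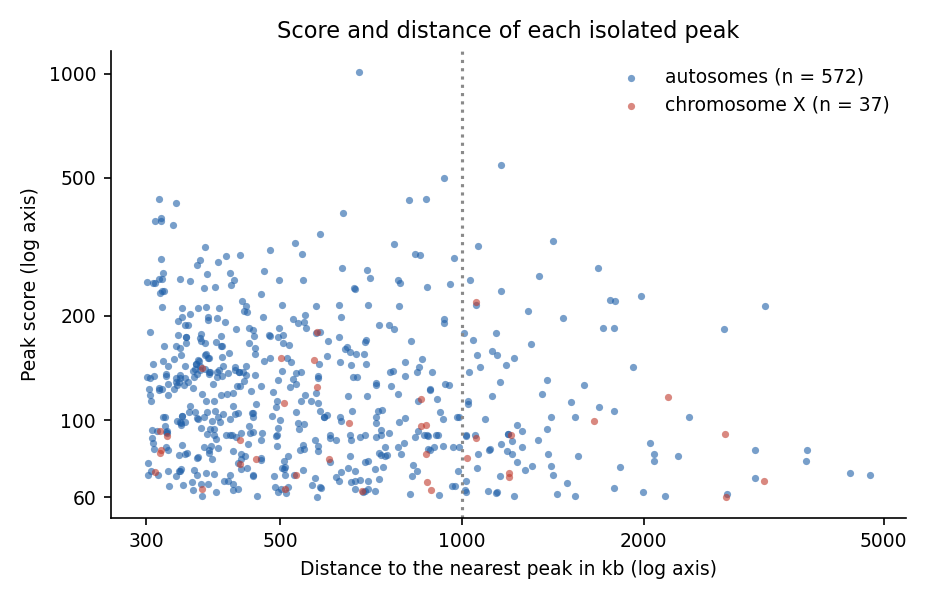
Score of each isolated peak (vertical log axis) against the distance to its nearest neighbour in kb (horizontal log axis), for 572 autosomal peaks and 37 on chromosome X; the dotted line marks 1000 kb. Scores spread widely at every distance, and beyond 2000 kb most points lie low, with a median of 78.69 for 19 peaks.

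Isolated peaks were spread over all 20 chromosomes, but unevenly. Chromosome 1 held the most, 60 isolated peaks or 14.6% of its 412 peaks (exact interval 11.3 to 18.3). Chromosome 11, the chromosome with the most peaks per Mb of span, held 22 among 617, or 3.57% (2.25 to 5.35). Chromosome X had by far the highest share, with 37 of 130 peaks isolated, or 28.5% (20.9 to 37), against 7.98% over the 19 autosomes together. It contributed 6.08% of the isolated peaks and 1.39% of the others. Sparse peaks favour a larger isolated share by construction, so these shares carry no test. Chromosomes 12, 13 and 14 were picked as examples after their values were seen. Chromosome 14, with 2.2 peaks per Mb of span, had 8.33% isolated (5.23 to 12.5). Chromosome 12, with 2.44, had 6.69% (4.08 to 10.3), and chromosome 13, with 2.65, had 12.3% (8.85 to 16.5). These intervals overlapped, and the relation of share to density was not tested.

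**Figure D4:**
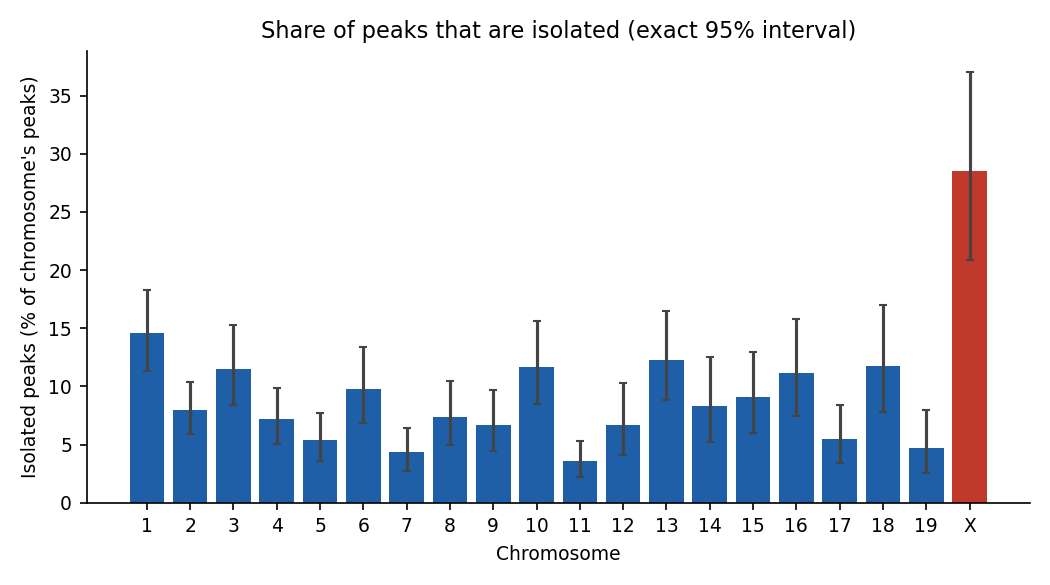
Isolated peaks as a percent of all peaks on each chromosome (bars from 0, with exact 95% intervals). Chromosome X stands at 28.5%, and the autosomes lie between 3.57% on chromosome 11 and 14.6% on chromosome 1.

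Per length, chromosome X did not stand apart. It had 23.3 isolated peaks per 100 Mb of span (the distance from its first to its last peak), inside the autosomal range of 15.4 on chromosome 7 to 32.6 on chromosome 13. Over the 19 autosomes, the number of isolated peaks went with span (Pearson's r = 0.79, rho = 0.74) and little with the number of protein-coding genes (r = 0.25, rho = 0.3). For the other peaks the order was turned around, with r = 0.56 and rho = 0.71 for span and r = 0.92 and rho = 0.95 for genes. These are descriptions over chromosomes that share 1 library pair, and since a rule on gaps favours long, sparse chromosomes, they are partly built in. Gene numbers were counted per chromosome in a RefSeq table of another assembly, in which no coordinate was used. Chromosome 7, with 2030 such genes, had 11.3 isolated peaks per 1000 genes, and chromosome 1, with 1204, had 49.8.

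Within single chromosomes, neither kind of peak had the higher median score throughout. The isolated median was the higher on 12 chromosomes and the lower on 8, and on all 20 its interval included the median of the other peaks. These intervals rest on 13 to 60 isolated peaks and are wide, such as 74.41 to 187.99 on chromosome 19. They could therefore hardly tell the 2 medians apart and do not show that scores were alike. The highest isolated median, 135.07 for 26 peaks, was on chromosome 15, where the other peaks had 116.5. On the autosomes the lowest was on chromosome 6, at 94.085 for 34 peaks, where the others had 113.69. On chromosome X both kinds were low, with medians of 87.46 (77.13 to 96.1) for isolated and 87.93 (82.28 to 94.2) for other peaks. Leaving out chromosome X, isolated peaks had a median of 113.45 and the others 112.08, so the slightly lower isolated median of the whole set became slightly higher.

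**Figure D5:**
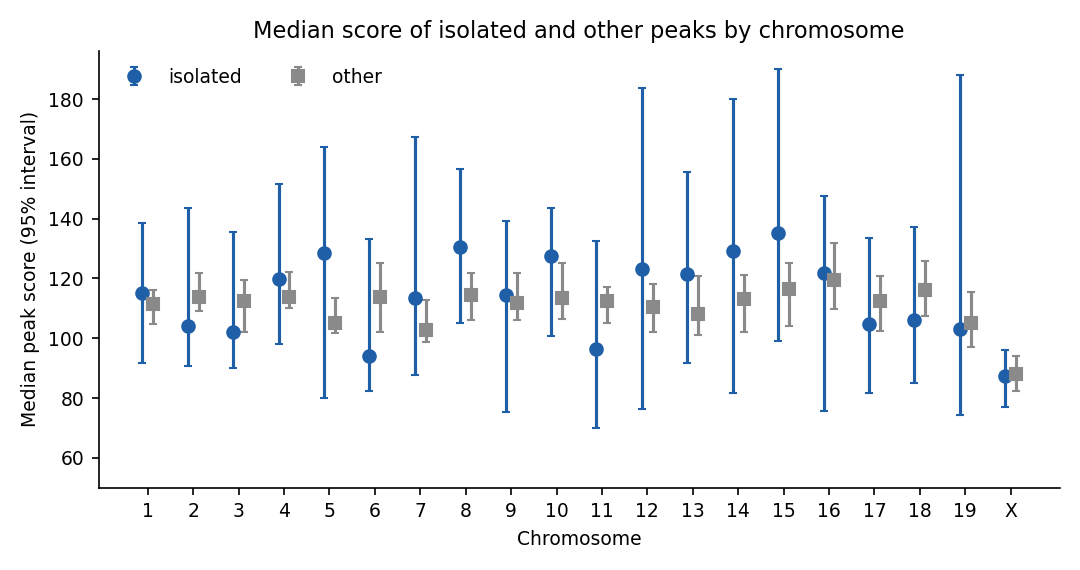
Median peak score by chromosome (vertical axis, with 95% order-statistic intervals) for isolated and other peaks. The order of the 2 medians changes from chromosome to chromosome, and the interval of the isolated peaks includes the other median on all 20; both medians on chromosome X, 87.46 and 87.93, lie low.

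The strongest isolated peak was on chromosome 10 at 96079721 to 96083978. Its score of 1010.6 was rank 2 of all placed peaks, it spanned 4258 bp, and its neighbours, 675.6 kb before and 2293.3 kb after it, scored 155.29 and 208.71. Next among isolated peaks came one on chromosome 15 at 61817006 to 61819843, 2838 bp wide, with a score of 546.26 (rank 21). It lay 1160.5 kb and 2070.7 kb from neighbours scoring 235.12 and 242.09, and was the strongest of the peaks beyond 1 Mb. It was followed by a peak on chromosome 13 at 102536648 to 102538146, with a score of 499.48 and neighbours scoring 76.52 and 62.68. Each of the 3 thus had a score above those of both flanking peaks.

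Ranks 4 to 7 among isolated peaks had scores close together, from 434 down to 422.96. They were a peak of only 1146 bp on chromosome 5 at 145528792 to 145529937 (434), one on chromosome 1 at 6203839 to 6205814 (433.81), one on chromosome 4 at 82149715 to 82151270 (430.39) and one on chromosome 16 at 85172632 to 85174240 (422.96). The chromosome 5 peak had the highest score per kb of the 10, at 379. Rank 8, on chromosome 14 at 106293620 to 106296240 (396.42, 2621 bp wide), bordered a gap of 11029.7 kb. Rank 9 was on chromosome 16 at 22264562 to 22266407 (382.63), and rank 10 on chromosome 1 at 165859686 to 165861079 (376.61). Among the 100 highest scores of all placed peaks, 8 were isolated (8%, exact interval 3.52 to 15.2), close to the isolated share of all peaks. The strongest isolated peak on chromosome X, at 10294524 to 10295915, had a score of 219.81 (rank 797), and its neighbours scored 88.8 and 62.6.

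The 5 most remote peaks were mostly weak. The most remote, on chromosome 16 at 70313955 to 70314644, was 4750.5 kb and 5452.8 kb from its neighbours and scored 69.53. The next lay on chromosome 6 at 78331755 to 78332179, 425 bp wide, with a score of 70.2 and 4390.8 kb to its nearer neighbour. A peak on chromosome 3 at 75359844 to 75361696 had 3728.5 kb on its nearer side and a score of 82.18, although it was 1853 bp wide, which gives 44.3 score units per kb. A peak on chromosome 5 at 58109357 to 58109937 scored 76.26. The exception was on chromosome 7 at 66483370 to 66485428, where a 2059 bp peak with 3176.8 kb on its nearer side scored 214.14 (rank 872). The first 4 scored below both of their neighbours, and the chromosome 7 peak above both of its own.

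Over all members, scores below both neighbours were about as frequent as scores above both. The most remote peaks were not counted apart, so these shares say nothing about them. Of the 609 isolated peaks, 209 (34.3%, interval 30.5 to 38.2) scored above both neighbours and 210 (34.5%, 30.7 to 38.4) below both. Of the other peaks with neighbours on both sides, 33.6% scored above both and 33.6% below both. Isolated peaks were thus local high or low points in score at shares within 1 percentage point of those of all these other peaks. Of the other peaks without a neighbour under 1 kb, 34.3% scored above both and 32.8% (31.5 to 34.1) below both. The last share was further from the 34.5% of isolated peaks but lay inside their interval.

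Some isolated peaks came in succession along a chromosome. Neighbours of an isolated peak already have a gap over 300 kb on that side, so succession is partly built into the rule, and the runs are given as a description. The 609 peaks formed 374 runs of consecutive isolated peaks, of which 236 were single peaks and 9 held at least 6. The longest run, 9 peaks on chromosome 4, spanned 18.4 Mb from 63707061 to 82151270, with scores from 60.36 to 430.39, and ended in the peak ranked 6 among isolated peaks. A run of 8 on chromosome X covered 14.7 Mb from 132277227 to 147022695, with a median score of 113.645, and a run of 8 on chromosome 13 covered 8.28 Mb from 83662898 to 91947618, with a median of 151.745. The 61 peaks in the 9 long runs had a median score of 113.45 (101.46 to 138.53), and the 236 single ones had 119.28 (104.49 to 131.91). The medians of the long runs differed widely, from 83.585 for 6 peaks on chromosome 1 at 187186880 to 191552879 and 87.595 for 6 on chromosome 6 at 15670412 to 22306155 up to that of the chromosome 13 run.

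Part of the scores in the list fall on fixed steps, and isolated peaks did so at a share near that of the others. A score was counted when, rounded to 2 decimals, it matched a Poisson tail probability p for a whole-number count and a mean of 1, 2, 3 or 4, written as -10 times log10(p). This held for 124 isolated peaks, or 20.4% (17.2 to 23.8), and for 20.9% of the others. At a mean of 1 the shares were 10.8% in both. The score most common among isolated peaks was 101.97, held by 11 of them and 68 others. Next were 137.29, held by 9 isolated and 80 other peaks, and 90.8, held by 9 isolated and 150 other peaks. These isolated counts are small and partly tied, so no difference in order between the sets is read from them. Beyond 1 Mb, 18.1% (11.3 to 26.8) of isolated peaks matched a step, 10.5% at a mean of 1 and 1.9% (0.232 to 6.71) at a mean of 2. At 300 to 1000 kb, 20.8% (17.4 to 24.6) matched, 10.9% at a mean of 1 and 5.16% (3.4 to 7.47) at a mean of 2, and the intervals given overlapped. For peaks off the steps, no background was assigned.

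Membership turns on an exact limit of 300 kb, so peaks near it are alike in isolation. Just inside were peaks on chromosome 11 at 80592514 to 80593523 (smaller gap 300.5 kb, score 133.35), on chromosome 7 at 73834186 to 73835345 (300.7 kb, 250.85) and on chromosome 2 at 127951710 to 127952536 (301.7 kb, 75.33). Just outside were peaks on chromosome 4 at 144483075 to 144485029 (298.7 kb, 194.07), on chromosome 17 at 83613748 to 83614341 (298.7 kb, 90.02) and on chromosome 15 at 85166684 to 85167506 (298.5 kb, 125.23). A further 2261 peaks had a gap over 300 kb on a single side.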

How the data were processed

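The deposited list gives for each peak a chromosome, start, end, name and score. Peak names begin with MACS, so the score assigned by the authors is taken as that caller's value. Its version, its threshold and the library used for the call are not given in the sources at hand. Per the submitters' processing notes, Bowtie and SAMtools were used with build mm9. The read depth is unknown, so precision rests on peak numbers alone. No columns were left out for want of a sample.

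Starts were shifted by 1 base. A gap is the start of a peak minus the end of the previous one. The 15 peaks on unplaced sequences were not used. Medians carry order-statistic (exact binomial) 95% intervals and shares exact Clopper-Pearson 95% intervals. The code was tested on simulated data. Peaks named are the 10 highest-scoring, the 5 most remote, 3 on each side of the limit and the strongest on chromosome X. Members, measures and rules were chosen with earlier results of these data known. Alternatives changed the gap, joined close peaks, or restricted scores, chromosomes or the comparison peaks. Sequence, annotation and gene lists were not analysed, for want of an mm9 reference here. Computations used scipy 1.17.1, pandas 2.3.3 and numpy 2.4.6 under Python 3.11.15, and figures matplotlib 3.10.9.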

Additional observations from a re-analysis of the deposited data

How the results depend on the processing

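Of 68 alternative values, 41 lay within 1.5 times the count or within the 95% interval of the value reported. Not all of these could move, since restriction to autosomes leaves the autosomal share as it is. The 27 that moved follow. The number of isolated peaks, 609, was 981 at a gap over 200 kb, 321 at 500 kb and 105 at 1 Mb. The autosomal isolated share, 7.98%, was 12.9%, 4.1% and 1.31% at these gaps, 9.82% with peaks under 1 kb apart joined and 20% among the upper 50% of scores; that of chromosome X, 28.5%, was 41.5%, 20.8% and 8.46% at the gaps and 59.5% among the upper 50% of scores. The median score, 109.49 (97.7% of other peaks), was 100.8 (89.9%) at 500 kb, 90.8 (81%) at 1 Mb and 164.0 among the upper 50% of scores, where the others had 160.7. The median width, 892 bp (97.6%), was 811 bp (88.7%) at 1 Mb, 941 bp with close peaks joined and 1118 bp (103.0%) among the upper 50%. The joined 941 bp was 94.7% of the 994 bp of the other peaks, a percent that did not count as moved. The share in the upper 25% of scores, 24.6%, was 21% at 1 Mb, and that under 70, 12.8%, was 16.5% at 500 kb, 20% at 1 Mb and 0% by construction among the upper 50%. For most of these shifts the cause was not tested; shares change with the gap by construction. Sorted by the larger gap, the class beyond 1 Mb was another set, with 1136 peaks, many of them not isolated, in place of 105. Its median score was 105.5 in place of 90.8, against 113.45 for the 1734 peaks at 300 to 1000 kb by the larger gap. Among values that did not move, the class beyond 1 Mb by the smaller gap gave 91 on autosomes and 92.8 with close peaks joined. Both of these alternatives were chosen after seeing the data. The width relative to other peaks without a close neighbour, 94%, also stayed within the interval of the 97.6% reported. Its own interval, 90.4 to 98.3%, left out equal widths, whereas that of the 97.6%, 93.9 to 102.1%, included them. Alternatives needing an mm9 genome were not run. No paired analysis was possible because the list names no genotype and each group had 1 library.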
